A study of Mus musculus with 4 samples.

Results

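The genes of the cytosolic ribosomal proteins were followed in c-Kit+ leukemic cells of MLL-AF9 (MA9) acute myeloid leukemia (AML) with and without overexpression of Suv39h1. A gene was a member if its Ensembl identifier carried a protein-coding GENCODE M21 symbol made of Rpl, Rps, Rplp or Rpsp and a number, or Rpsa, leaving out the Rps6k kinases. This gave 89 of the 23552 genes in the deposited table. They hold 46 genes of core proteins of the large subunit, 31 genes of core proteins of the small subunit, 5 paralogs (Rpl22l1, Rpl36al, Rpl3l, Rpl7l1 and Rps27l) and 6 near-copies annotated as protein-coding (Rps27rt, Rps12-ps3, Rpl10-ps3, Rpl36a-ps1, Rpl9-ps1 and Rpl9-ps6). The remaining member, Rps19bp1, matches by its name only and encodes a protein that binds a ribosomal protein. Of the M21 symbols that match, Rpl10l, Rpl36-ps4 and Rpl39l were not analysed here.

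The cytosolic ribosome joins a small subunit, which reads the mRNA, to a large subunit, which makes the peptide bond. Each of its proteins is present in about equal number, and in mammals nearly every one is made from a single active gene that has many processed pseudogenes. Their mRNAs are short, abundant and begin with a terminal oligopyrimidine (TOP) tract, a run of C and T letters through which mTOR and LARP1 set their translation. Loss of 1 copy of several of these genes causes failure of red cell production, and free Rpl5 and Rpl11 stabilize p53, so the family is closely studied in blood and leukemia.

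RNA-Seq covered 4 libraries. Controls (replicates 3 and 4) were MA9 leukemic cells of strain C57BL/6 carrying control-eGFP, and SUV-OE cells (replicates 2 and 3) were MA9 leukemic cells of the same strain carrying Suv39h1-eGFP. The fusion gene MLL-AF9 was present in both groups, and per the study's methods cells transduced with virus were passed through sublethally irradiated recipients, for which 8-week-old female mice (C57BL/6J) were used. c-Kit+ cells were taken from the bone marrow of moribund mice, so host cells that carry c-Kit could be among them. The labels do not tie libraries to separate animals, so p-values measure the spread between these libraries, which may be technical. Reads estimated from FPKM and summed over genes ranged from 20085718 to 23561091 per library. The library totals that scale FPKM were estimated lower, at 16873770 to 19453058, so the depth is uncertain. By these totals 3 reads on 1 kb of exons were worth 0.154 to 0.178 FPKM (counting error only). Suv39h1 had 12.4 FPKM in each control library and 75.3 and 81.2 FPKM in the SUV-OE libraries (log2 fold change 2.56, standard error 0.11, limma adjusted p = 0.00866). Of 9 tested markers of leukemic c-Kit+ cells, 4 were lower and 2 were higher in both SUV-OE libraries, against 28.4% and 25.4% of all tested genes. Kit, among the higher, was at 20.4 and 19.2 FPKM in controls and 28.6 and 25.4 FPKM in SUV-OE cells. In bulk RNA, fewer cells of a type and less RNA per cell cannot be told apart.

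The control libraries stood further from each other than from the SUV-OE libraries in this gene family. Control 4 was above control 3 in 85 of the 88 tested members, against 49.9% of all 13736 tested genes. SUV-OE 3 was likewise above SUV-OE 2 in 85 of the 88, against 50.2% of all genes. The median difference between the control libraries was 0.65 on the log2(FPKM + 1) scale over members and 0 over all tested genes. Between the SUV-OE libraries the median difference was 0.28 over members and 0.00 over all genes. Every group comparison below carries this spread.

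The smallest members are the ones on which the libraries differed most, and the coding sequence of the shortest shows how small these messages are. Rpl41 codes for a peptide of the large subunit that consists mostly of basic residues. It is printed from a GENCODE M21 transcript, with no base singled out.
Rpl41: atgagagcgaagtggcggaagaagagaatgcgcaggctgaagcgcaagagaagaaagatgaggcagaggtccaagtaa
The coding sequence of Rpl41 (chromosome 10, mm10) has 78 bases and that of Rps29, which codes for a zinc-binding protein of the small subunit, has 171, while Rpl4, the longest among core members, has 1260. Rpl41 had 816 and 1972 FPKM in controls 3 and 4 and 993 and 1245 FPKM in SUV-OE 2 and 3. Rps29 had 732 and 3508 FPKM in controls and 1865 and 2371 FPKM in SUV-OE cells. In both genes the SUV-OE libraries lay between the controls.

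FPKM counts fragments per kilobase of exons, scaled to the mapped reads of the library, and by this measure the family filled a large part of every library. Its share of summed FPKM was 17.5% in control 3, 24.1% in control 4, 19.6% in SUV-OE 2 and 21.6% in SUV-OE 3. The controls thus had both the lowest and the highest share, and the SUV-OE libraries lay between them. The mean was 20.8% ± 4.68 (SD, n = 2) in controls and 20.6% ± 1.43 (SD, n = 2) in SUV-OE cells (exact two-sided permutation test, p = 1, where 2 libraries against 2 cannot go below p = 0.333). Counted in estimated reads, in which short genes weigh less and which came out whole for 55 of the 89 members only, the shares were 9.77% and 14.6% in controls and 10.9% and 12.7% in SUV-OE cells. The large subunit took 9.20% and 12.2% of summed FPKM in controls and 9.99% and 10.98% in SUV-OE cells. The small subunit took 8.12% and 11.7% in controls and 9.45% and 10.5% in SUV-OE cells, in the same order of libraries.

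**Figure D1:**
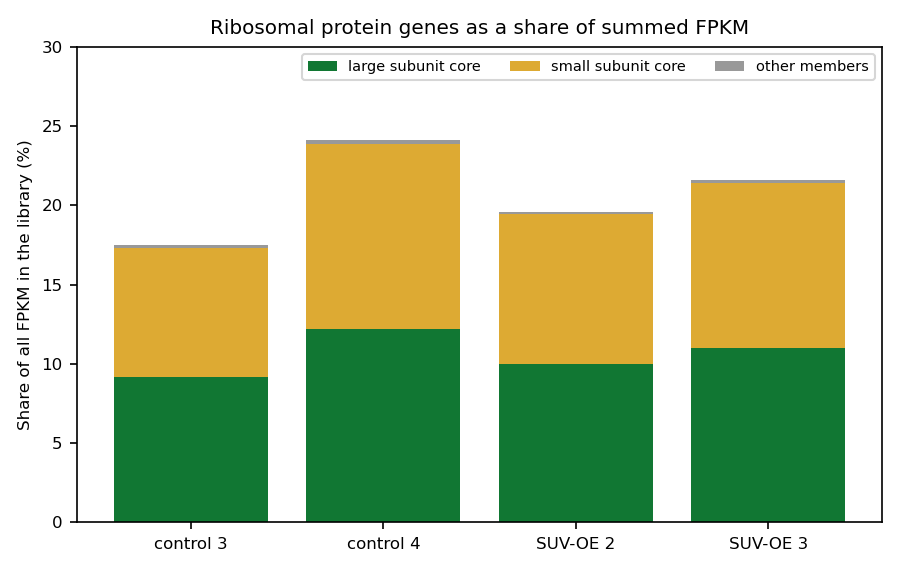
Share of summed FPKM (%, y axis) held by ribosomal protein genes in each of the 4 libraries (x axis), split into the large subunit core, the small subunit core and other members. The bars reach 17.5% and 24.1% in controls 3 and 4, and 19.6% and 21.6% in SUV-OE 2 and 3.

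The median core member had 581 FPKM in control 3, 1001 in control 4, 660 in SUV-OE 2 and 826 in SUV-OE 3. Both controls were at 100 FPKM or more in 74 of the 77 core members. The 3 members with the highest mean FPKM were Rps12, Rplp1 and Rps26. Rps12, a protein of the small subunit, had 2849 and 4332 FPKM in controls and 2840 and 3515 FPKM in SUV-OE cells. Leaving out Rpl24, the middle 80% of core members by mean FPKM lay between 284 and 1999. FPKM depends on the exon length that the authors' annotation gives a gene, which includes retained introns and long variants, so the order of genes by level is less certain than the order of libraries within a gene.

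**Figure D2:**
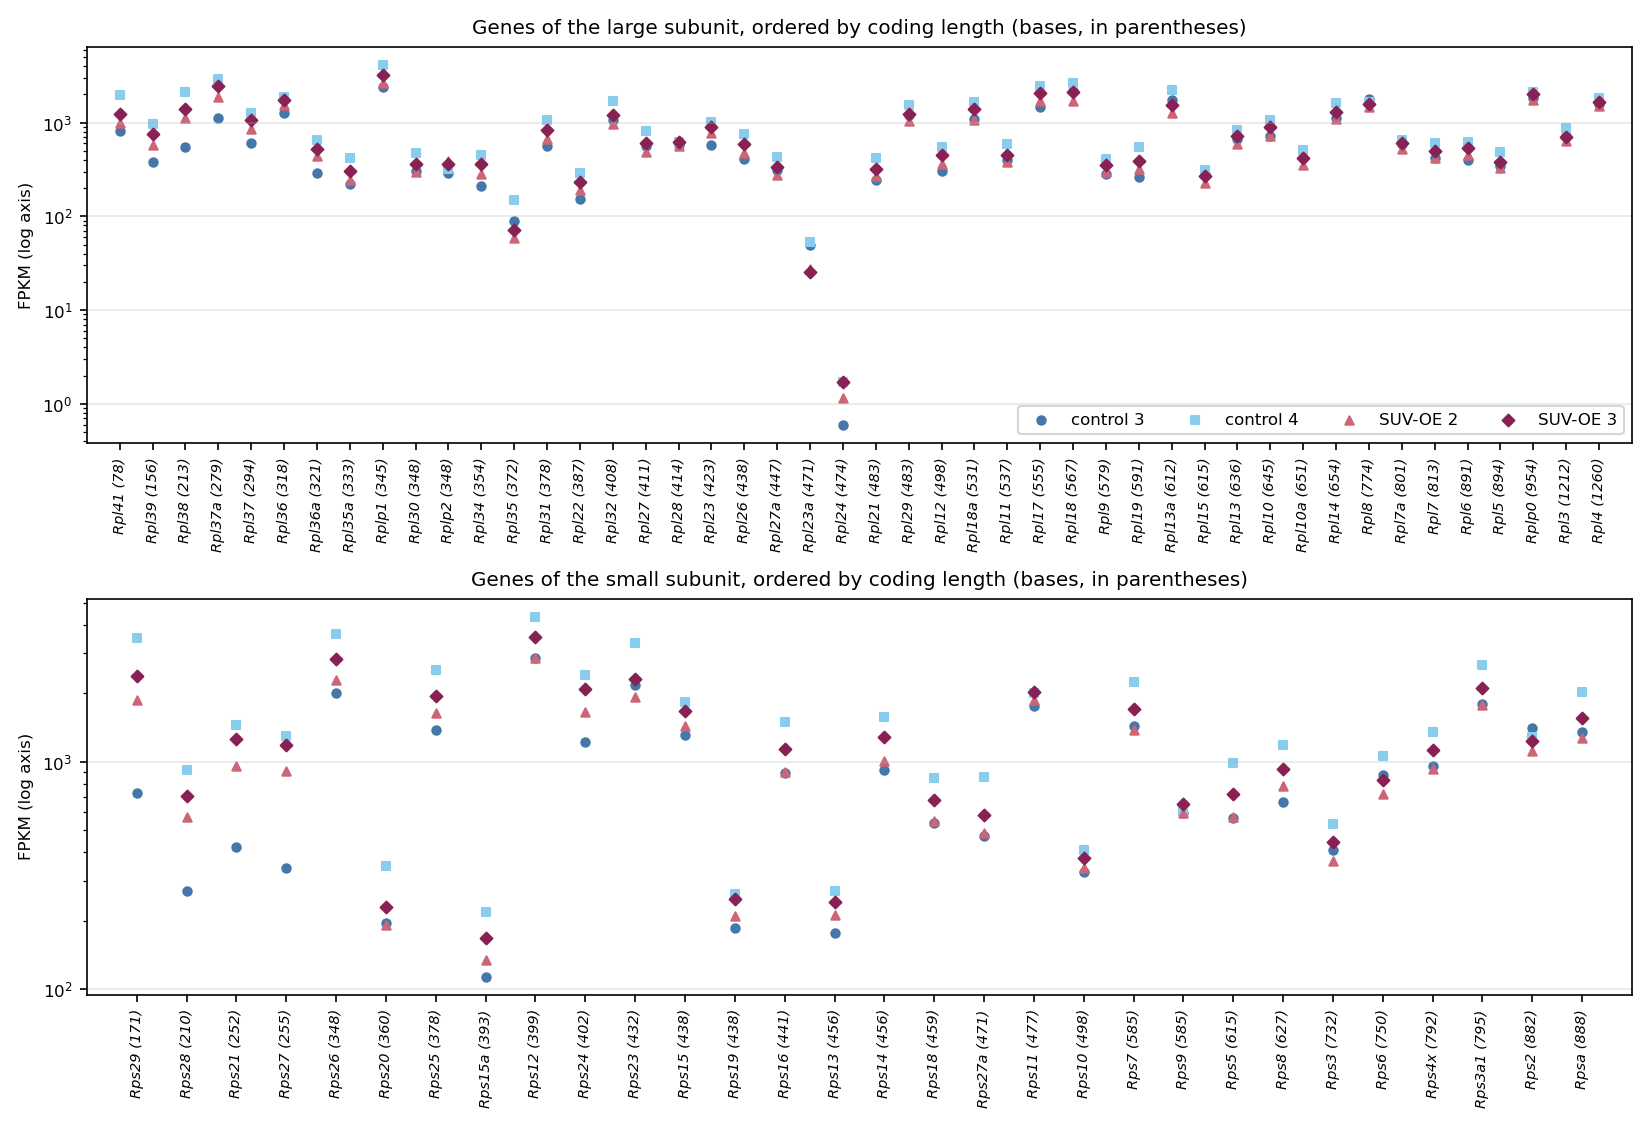
FPKM (y axis, log scale) of 76 of the 77 core members in each library, large subunit above and small subunit below, ordered along the x axis by coding length (bases, in parentheses). Control 4 is the highest library in most genes, control 3 is far below the others at the short end of the small subunit, and Rpl24 and Rpl23a lie below the rest of the large subunit.

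Rpl24, Rpl23a and Rpl35 stood below 100 FPKM in at least 1 control library, although each encodes 1 core protein of the large subunit. Rpl24 (chromosome 16, 55966275 to 55971435) was listed at 0.60 and 1.73 FPKM in controls and 1.15 and 1.69 FPKM in SUV-OE cells, from 12, 30, 21 and 31 recovered reads. It overlaps Gm28037 in the annotation, and 80.1% of the 100-base windows of its mRNA occur in transcripts of other genes. A read that matches several genes can be dropped or split, and the authors' handling of such reads is not given in the sources used here. Over the core members the median was 34.2% of windows shared, and 28 of 77 shared 50% or more, so levels of these genes are uncertain where pseudogenes are nearly identical.

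Suv39h1 places the repressive mark H3K9me3, and the comparison of SUV-OE with control cells asks which genes move when it is overexpressed. None of the 88 tested members was a differentially expressed gene (DEG) by limma (adjusted p under 0.05 with a log2 change of 1 or more in either direction), against 1.22% of all tested genes. One member, Rpl23a, had an adjusted p under 0.05 at any fold change, against 1.29% of all tested genes. By limma-voom on the genes whose reads came out whole, 2 of 54 tested members (Rpl23a and Rpl22l1) had an adjusted p under 0.05, against 5.93% of the 10427 genes in that fit. At an unadjusted p under 0.05 there were 4 members, all lower in SUV-OE cells (Rpl23a, Rpl22l1, Rpl35 and Rpl7l1), against 20.7% of all tested genes in either direction and 10.4% lower. The log2 fold change was below 0 in 62 of the 88 members, in 53% of all tested genes and in 310 of the 401 other tested genes with a mean of 100 FPKM or more. The median log2 fold change was -0.12 over members, -0.13 over the large subunit, -0.08 over the small subunit, -0.02 over all tested genes and -0.21 over those 401. It was -0.45 over members without control 3 and 0.18 without control 4, so its direction rests on which control library is used.

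The libraries had a common order in much of the family. In 44 of the 88 members the FPKM went up from control 3 through SUV-OE 2 and SUV-OE 3 to control 4, against 5.53% of all tested genes. In 45 members both SUV-OE libraries lay between the controls, against 17.5% of all genes. Both SUV-OE libraries were below both controls in 14 members, against 28.4% of all genes and 191 of the 401 other genes with a mean of 100 FPKM or more. Both were above in 1 member, Rplp2, against 25.4% of all genes and 31 of the 401. The absolute difference between the control libraries was larger than that between the groups in 75 of the 88 members and in 50.9% of all tested genes.

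The difference between the control libraries was graded by coding length. In the 9 core members with up to 300 coding bases (Rpl41, Rpl39, Rps29, Rps28, Rpl38, Rps21, Rps27, Rpl37a and Rpl37), control 4 was above control 3 by a median of 1.76 on the log2 scale, and all 9 had the common order of libraries. The median difference was 0.78 in 27 core members of 301 to 450 bases, 0.63 in 19 of 451 to 600 bases and 0.37 in 22 of more than 600 bases. Rps21 had 423 and 1443 FPKM in controls and 953 and 1255 in SUV-OE cells. Rps28 had 271 and 920 FPKM in controls and 572 and 706 in SUV-OE cells. Rpl38, which ribosomes need to translate a set of Hox mRNAs, had 545 and 2106 FPKM in controls and 1111 and 1395 FPKM in SUV-OE cells. In each of these 3 genes control 3 alone was low. At the other end, Rpl8 had 1779 and 1641 FPKM in controls and 1448 and 1570 FPKM in SUV-OE cells, and Rps2 had 1407 and 1282 FPKM in controls and 1119 and 1237 FPKM in SUV-OE cells. These are the core members in which control 3 was above control 4.

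Across the 77 core members, Spearman's rho between coding length and the difference of the controls was -0.69 (Pearson's r with log2 length -0.72). It was -0.47 for the difference between the SUV-OE libraries and -0.46 for the log2 fold change between groups. The points share the same 4 libraries, so these are descriptions. Other protein-coding genes had a grade in the same direction between the controls, with a median of 0.38 in 255 genes of up to 300 coding bases, 0.01 in 3735 genes of 601 to 1300 bases and -0.13 in 1362 genes of more than 3000 bases (rho -0.29 over 10884 genes). Between groups, the other genes were graded the opposite way, with a median log2 fold change of -0.18 in the shortest class and 0.06 in the longest (rho 0.19). The short core members had a median log2 fold change of 0.23, with 8 of 9 above 0, and all 22 core members of more than 600 coding bases were below 0 with a median of -0.19. Taking the short class out, core members held 15.9% and 19.9% of summed FPKM in controls and 16.6% and 18.1% in SUV-OE cells. Mitochondrially encoded genes had their lowest and highest share of summed FPKM in the same libraries, with 2.85% in control 3, 4.80% in control 4, 3.72% in SUV-OE 2 and 3.71% in SUV-OE 3, and their part in these differences was not tested.

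**Figure D3:**
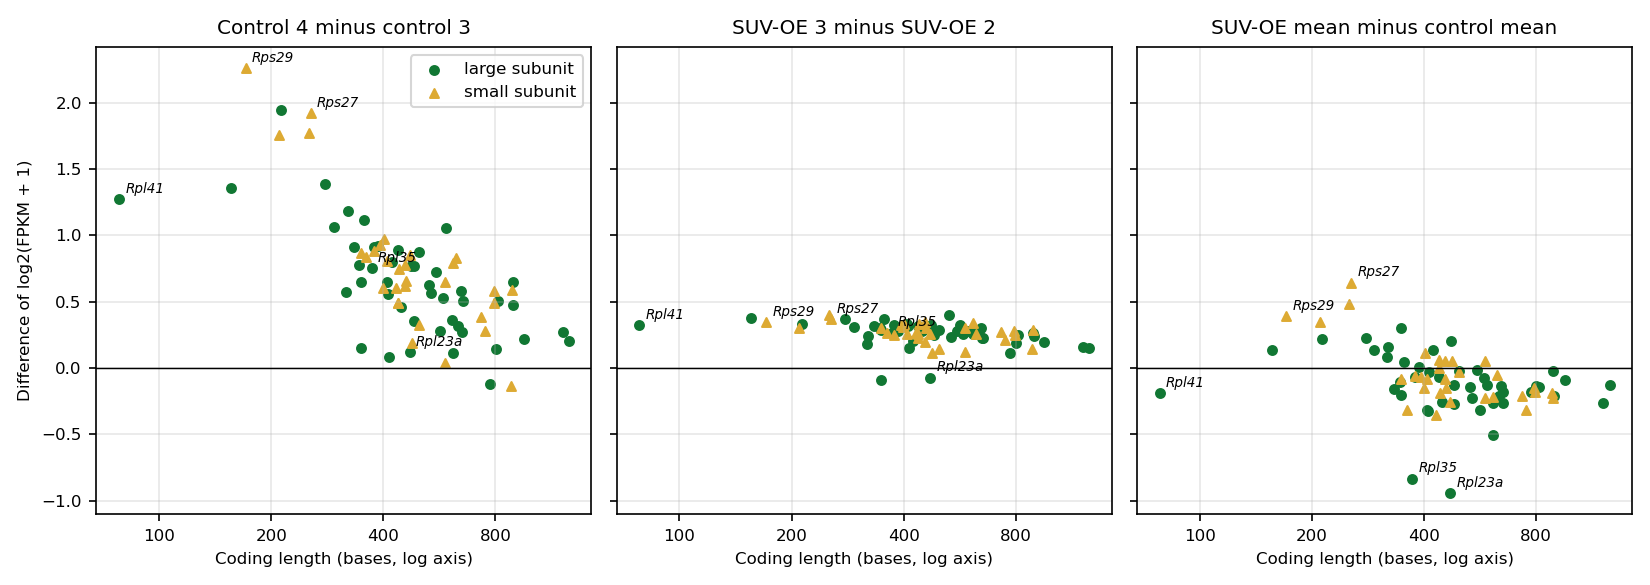
Difference of log2(FPKM + 1) (y axis) against coding length (bases, log x axis) for the 77 core members, between the controls (left), between the SUV-OE libraries (middle) and between the group means (right). Points of the left panel reach 2.26 at Rps29 and tend to be lower in longer genes, with 0.64 at Rpl6 and 0.20 at Rpl4, the longest. Those of the middle panel stay in a narrow band, and Rpl35 and Rpl23a lie lowest in the right panel.

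Rplp0, Rplp1 and Rplp2 form the stalk of the large subunit, the acidic arm that recruits elongation factors. Rplp2 was the member whose SUV-OE libraries were both above the controls, with 290 and 322 FPKM in controls and 388 and 365 FPKM in SUV-OE cells (log2 fold change 0.30, standard error 0.18, limma adjusted p = 0.400). Its partner Rplp1 had 2393 and 4103 FPKM in controls and 2630 and 3235 FPKM in SUV-OE cells. Rplp0, which anchors the stalk, had 1829 and 2125 FPKM in controls and 1732 and 1989 FPKM in SUV-OE cells. In Rplp1 and Rplp0 the groups overlapped, with log2 fold changes of -0.10 and -0.09.

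Rpl5 and Rpl11 bind the 5S ribosomal RNA, and outside the ribosome they hold Mdm2 away from p53. Rpl5 had 346 and 482 FPKM in controls and 325 and 384 FPKM in SUV-OE cells, and Rpl11 had 398 and 589 FPKM in controls and 382 and 450 FPKM in SUV-OE cells. Both overlapped between groups (log2 fold changes -0.21 and -0.22). Of the 4 genes listed for the loop that they act on, none had an adjusted p under 0.05. Mdm4, a partner of Mdm2, was higher in both SUV-OE libraries at 15.4 and 18.2 FPKM in controls and 23.2 and 20.8 FPKM in SUV-OE cells (log2 fold change 0.37, standard error 0.14, limma adjusted p = 0.225). Cdkn1a, a p53 target, had 11.8 and 12.1 FPKM in controls and 7.68 and 15.03 FPKM in SUV-OE cells, which lay on both sides of the controls.

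Several small-subunit genes and Rpl35a are mutated in Diamond-Blackfan anemia, and Rps14 is lost in the 5q- syndrome. The groups overlapped in the 5 genes described here. Rps19, the most often mutated, had 185 and 261 FPKM in controls and 210 and 251 FPKM in SUV-OE cells (log2 fold change 0.06, standard error 0.23). Rps14 had 917 and 1575 FPKM in controls and 1006 and 1278 FPKM in SUV-OE cells (log2 fold change -0.08, standard error 0.37). Rps24 had 1223 and 2400 FPKM in controls and 1656 and 2082 FPKM in SUV-OE cells, and Rps26 had 1998 and 3637 FPKM in controls and 2294 and 2833 FPKM in SUV-OE cells. In these 4 genes both SUV-OE libraries lay between the controls. Rpl35a had 221 and 416 FPKM in controls and 243 and 303 FPKM in SUV-OE cells (log2 fold change -0.16), and limma adjusted p ranged from 0.828 to 0.936 over the 5 genes.

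Rps6 is the ribosomal protein that the S6 kinases phosphorylate downstream of mTOR. It was lower in both SUV-OE libraries, with 872 and 1058 FPKM in controls and 718 and 833 FPKM in SUV-OE cells (log2 fold change -0.31, standard error 0.25, limma adjusted p = 0.534). Rpl13a, which also takes part in the control of translation in interferon-treated monocytes, had 1743 and 2238 FPKM in controls and 1261 and 1532 FPKM in SUV-OE cells (log2 fold change -0.51, standard error 0.32, limma adjusted p = 0.433). Rpl3, which lines the peptidyl transferase center, had 726 and 878 FPKM in controls and 629 and 702 FPKM in SUV-OE cells. These 3 genes did not overlap between groups and did not pass the test. Rpl10, a joining protein of the subunits that is mutated in T-cell leukemia, had 717 and 1071 FPKM in controls and 719 and 888 FPKM in SUV-OE cells. Rpsa, also a laminin receptor precursor, had 1345 and 2021 FPKM in controls and 1276 and 1561 FPKM in SUV-OE cells, and Rps27a, made as a fusion with ubiquitin, had 473 and 855 FPKM in controls and 486 and 581 FPKM in SUV-OE cells. In Rpl10, Rpsa and Rps27a the groups overlapped.

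Rpl23a, which lies at the exit of the peptide tunnel, had the lowest log2 fold change of the family. It had 49.5 and 53.9 FPKM in controls, from 816 and 770 recovered reads, and 27.1 and 25.8 FPKM in SUV-OE cells, from 408 and 388 reads. The groups did not overlap and the spread within each was small (log2 fold change -0.94, standard error 0.12, limma adjusted p = 0.0474). The call did not hold with a pseudocount of 0.1 (limma adjusted p = 0.0548), with quantile normalization (0.0600), without the trend (0.0580), with no filter on low values (0.113), with libraries scaled to the core ribosomal protein median (0.911) or with any library left out (0.115 to 0.390), while limma-voom kept it (0.0184). No gene of the whole table passed with a library left out or with no filter, so those losses are no measure of Rpl23a, and its log2 fold change stayed between -0.9995 and -0.80 under all settings run. Rpl23a (chromosome 11, 78180932 to 78183584, minus strand) overlaps Tlcd1 in a library that did not keep strand, and 80.0% of its mRNA windows occur in 7 other genes. The pseudogene Rpl23a-ps3 was at 19.4 and 42.1 FPKM in controls and 23.0 and 35.6 FPKM in SUV-OE cells, with the groups overlapping, and the level of Rpl23a is uncertain.

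Rpl35, another tunnel-exit protein, had 89.0 and 151 FPKM in controls and 58.8 and 70.9 FPKM in SUV-OE cells. Both SUV-OE libraries were lower (log2 fold change -0.83, standard error 0.28, limma adjusted p = 0.207). It overlaps Arpc5l and Wdr38, and 30.7% of its windows occur in other genes. The remaining core members with both SUV-OE libraries lower were Rpl10a, Rpl15, Rpl18, Rpl8 and Rps2, with log2 fold changes from -0.31 to -0.18.

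**Figure D4:**
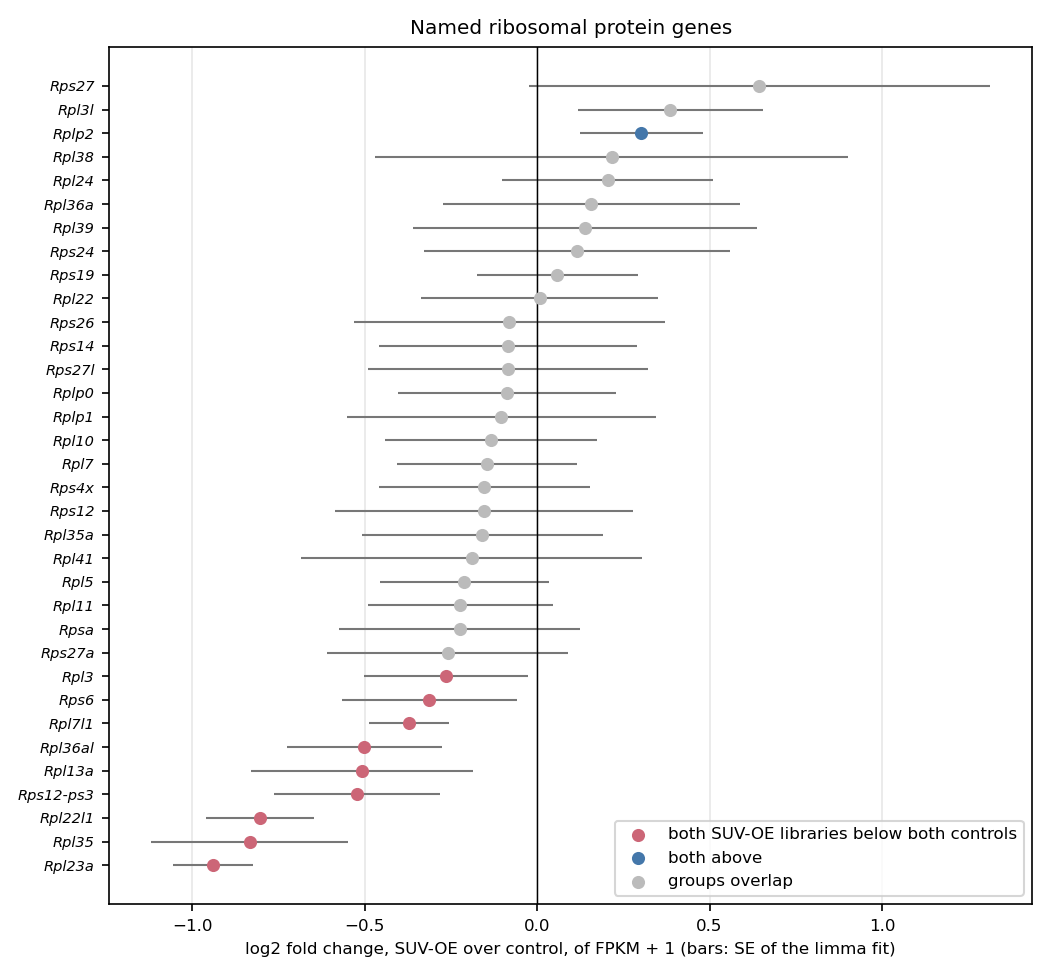
log2 fold change of SUV-OE over control (x axis, on FPKM + 1) with the standard error of the limma fit for named members (y axis), colored by whether both SUV-OE libraries lay below or above both controls. Rpl23a, Rpl35 and Rpl22l1 lie lowest at -0.94, -0.83 and -0.80, and only Rplp2 is colored as above.

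Some ribosomal proteins have a second gene, a paralog with its own promoter. Rps27 and Rps27l, a p53-responsive gene, each have 255 coding bases, of which 194 are identical. They are printed with capitals where Rps27l differs from Rps27.
Rps27: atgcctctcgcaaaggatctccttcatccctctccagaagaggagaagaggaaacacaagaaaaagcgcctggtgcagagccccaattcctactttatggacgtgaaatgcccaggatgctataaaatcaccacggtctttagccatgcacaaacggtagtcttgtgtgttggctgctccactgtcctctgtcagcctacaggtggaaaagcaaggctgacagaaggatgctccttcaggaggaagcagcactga
Rps27l: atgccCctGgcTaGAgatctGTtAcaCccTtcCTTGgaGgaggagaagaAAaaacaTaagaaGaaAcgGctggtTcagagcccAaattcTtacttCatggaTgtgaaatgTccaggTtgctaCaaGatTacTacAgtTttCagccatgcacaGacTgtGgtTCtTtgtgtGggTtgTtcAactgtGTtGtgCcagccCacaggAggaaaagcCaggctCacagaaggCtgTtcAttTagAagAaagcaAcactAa
Rps27 had 341 and 1292 FPKM in controls and 914 and 1180 FPKM in SUV-OE cells, and Rps27l had 139 and 303 FPKM in controls and 171 and 219 FPKM in SUV-OE cells. Both had the lowest value in control 3 and the highest in control 4. The longest run of identical letters between them is 11 bases, and 0% of the windows of Rps27l occur elsewhere, so no 100-base stretch of its mRNA is held in common with Rps27. The near-copy Rps27rt is identical to Rps27 over all 255 coding bases and had 31.3 and 91.5 FPKM in controls and 68.5 and 90.3 FPKM in SUV-OE cells, which cannot be separated from reads of Rps27.

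Rpl36a, on the X chromosome, and Rpl36al, on chromosome 12, each have 321 coding bases, with 282 identical and no identical run longer than 24 bases. Rpl36a had 286 and 652 FPKM in controls and 443 and 524 FPKM in SUV-OE cells, with the SUV-OE libraries between the controls (log2 fold change 0.16, standard error 0.43). Rpl36al had 296 and 385 FPKM in controls and 214 and 266 FPKM in SUV-OE cells, with both SUV-OE libraries below the controls (log2 fold change -0.50, standard error 0.22, limma adjusted p = 0.296). Rpl36al overlaps Gm49383 and shares 59.0% of its windows with 2 genes. The difference between the changes of Rpl36a and Rpl36al was not tested.

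Rpl22 and Rpl22l1 can replace each other in the ribosome, and Rpl22 is known to hold down the level of its paralog. Rpl22 had 153 and 290 FPKM in controls and 192 and 233 FPKM in SUV-OE cells (log2 fold change 0.01, standard error 0.34). Rpl22l1 had 33.1 and 35.3 FPKM in controls, from 1281 and 1185 recovered reads, and 16.9 and 21.8 FPKM in SUV-OE cells, from 595 and 770 reads. Its groups did not overlap (log2 fold change -0.80, standard error 0.16, limma adjusted p = 0.0967, and 0.0378 by limma-voom). It overlaps Gm33051 in the annotation and shares 40.6% of its windows with 1 gene.

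Rpl7l1, a paralog of Rpl7 with roles in the making of the large subunit, had 74.6 and 75.5 FPKM in controls and 56.5 and 59.2 FPKM in SUV-OE cells (log2 fold change -0.37, standard error 0.12, limma adjusted p = 0.187), with no overlap between groups. Rpl7 had 422 and 600 FPKM in controls and 418 and 497 FPKM in SUV-OE cells. Rpl3l, a muscle form of Rpl3, was between 0.78 and 2.23 FPKM in the 4 libraries. Rpl3l was thus near the floor of these data. Rps12-ps3, whose windows all occur in other genes, had 39.2 and 26.5 FPKM in controls and 19.3 and 25.5 FPKM in SUV-OE cells, and Rpl10-ps3 is identical to Rpl10 over 645 coding bases and reached 2.43 FPKM. Rpl9-ps1 was below the filter with 0.10 FPKM or less and was not tested. Rps4l is annotated as a pseudogene in M21 and had 2.13 and 3.02 FPKM in controls and 2.21 and 2.62 FPKM in SUV-OE cells, while Rps4x had 960 and 1346 FPKM in controls and 929 and 1125 FPKM in SUV-OE cells.

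**Figure D5:**
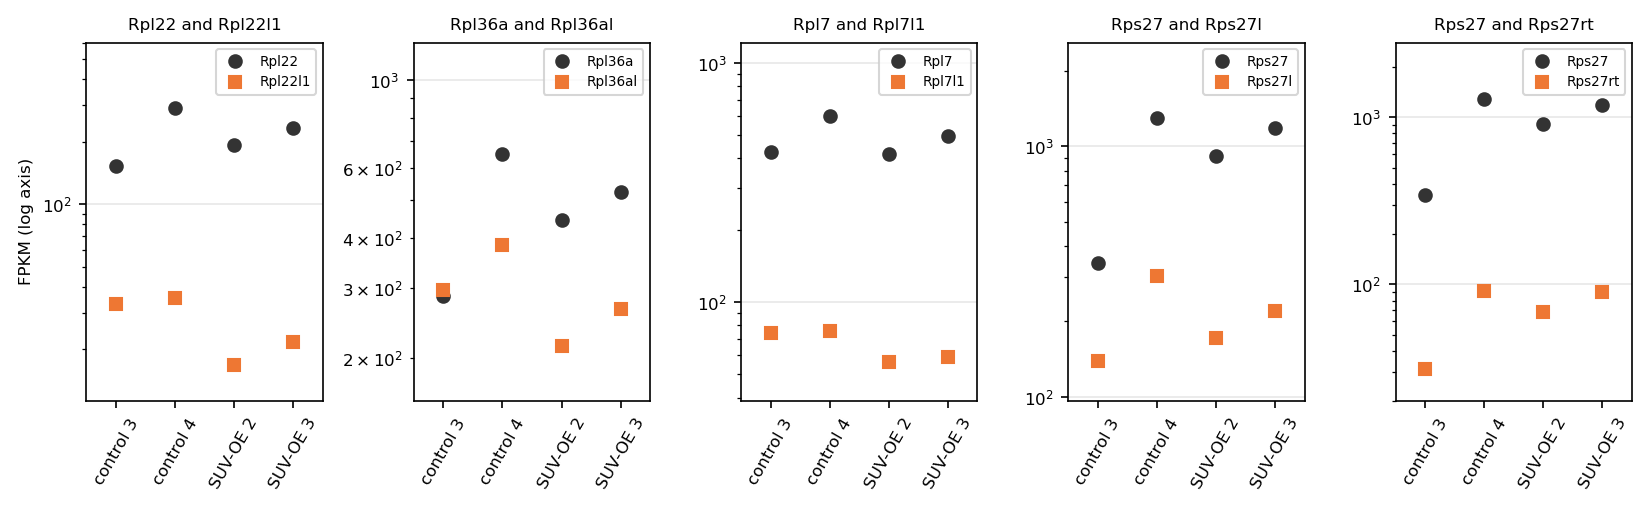
FPKM (y axis, log scale) in the 4 libraries (x axis) of 5 pairs of a ribosomal protein gene (black) and its paralog or near-copy (orange). Rpl22l1, Rpl36al and Rpl7l1 are lower in both SUV-OE libraries than in both controls, while Rpl22, Rpl36a, Rps27, Rps27l and Rps27rt overlap between groups.

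Sequences at the start sites were read from RefSeq promoters of build GRCm38.p6, in which 57 of the 77 core members had an entry. The 30 bases around each start, 15 before it and 15 from it on, are shown for genes that the results turn on, with capitals for runs of C and T that begin with C and hold the motif CTTTC, the motif CTTCC or the motif CTCTT. Printed are Rplp2, Rpl13a, Rpl35 and Rps6, whose groups did not overlap, Rps27 and Rpl38 as short members, and Rpl22l1 and Rpl36al as paralogs. Other members of these kinds had an entry and are not printed. Of them, Rpl15 and Rpl18 held a motif. The short members Rpl37, Rpl37a, Rpl39, Rpl41, Rps21 and Rps28 held none, nor did the non-overlapping Rpl10a and Rps2 or the paralogs Rpl7l1, Rps27l and Rpl3l. The printed windows therefore do not stand for the family.
Rplp2, chr7:141447636-141447665, plus strand: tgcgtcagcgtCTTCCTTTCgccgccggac
Rpl13a, chr7:45128731-45128760, minus strand: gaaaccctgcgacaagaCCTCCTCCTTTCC
Rpl35, chr2:39005117-39005146, minus strand: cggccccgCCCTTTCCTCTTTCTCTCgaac
Rps6, chr4:86857353-86857382, minus strand: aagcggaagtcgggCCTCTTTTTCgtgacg
Rps27, chr3:90213634-90213663, minus strand: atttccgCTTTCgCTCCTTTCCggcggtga
Rpl38, chr11:114668565-114668594, plus strand: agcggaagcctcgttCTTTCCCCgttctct
Rpl22l1, chr3:28805493-28805522, plus strand: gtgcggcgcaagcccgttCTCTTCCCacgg
Rpl36al, chr12:69184053-69184082, minus strand: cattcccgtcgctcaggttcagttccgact
On the transcribed strand, 26 of the 57 core members (45.6%) held 1 of the 3 motifs in the window, against 15.02% of the 27025 genes with an entry. On the other strand, 19.3% of core members and 15.6% of all genes did. The motifs overlap each other in longer runs. CCGGAAG, the core of an ETS factor site, was found on either strand of the 300 bases in 42.1% of core members and 9.93% of all genes, and AAGATGG, the core of a YY1 site, in 15.8% and 7.28%. Of 10 members with an entry and both SUV-OE libraries lower, 6 held 1 of the 3 motifs in the window. Of the other 54 tested members with an entry, 22 did. The window takes in 15 bases before the start, so a match need not be a TOP tract. A match describes these letters only.

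Fau and Rack1 also encode cytosolic ribosomal proteins, under symbols that the rule does not match. Fau, made as a fusion of a ubiquitin-like protein and a small-subunit protein, had 1300 and 1830 FPKM in controls and 1167 and 1396 FPKM in SUV-OE cells. Rack1, a scaffold on the small subunit, had 329 and 417 FPKM in controls and 318 and 370 FPKM in SUV-OE cells. In both genes the groups overlapped, with log2 fold changes of -0.27 and -0.11.

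Factors that load and move ribosomes were set beside the family from lists written from general knowledge. None of the 37 initiation factors had an adjusted p under 0.05 by limma (6 at an unadjusted p under 0.05, against 20.7% of all tested genes). Both SUV-OE libraries were below both controls in 21 of them and above in 0, against 28.4% and 25.4% of all tested genes. Among the 401 other genes with a mean of 100 FPKM or more these counts were 191 and 31. The median difference between the control libraries was 0.01 in this list, unlike the 0.65 in the ribosomal protein genes. Eif2s2, a subunit of the factor that brings the initiator tRNA, had 30.2 and 49.7 FPKM in controls and 24.1 and 29.6 FPKM in SUV-OE cells (log2 fold change -0.52). Eif3m, of the eIF3 complex, had 65.5 and 87.5 FPKM in controls and 48.3 and 57.5 FPKM in SUV-OE cells (log2 fold change -0.51). Eif2b1 and Eif2b2, of the exchange factor eIF2B, had log2 fold changes of -0.49 and -0.50.

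Elongation and release factors had 6 of 12 genes with both SUV-OE libraries lower and 1 with both higher, against 28.4% and 25.4% of all tested genes. Of the 401 other genes with a mean of 100 FPKM or more, 191 were lower and 31 higher in both. Eif5a, which helps ribosomes through proline runs, had 767 and 586 FPKM in controls and 438 and 457 FPKM in SUV-OE cells (log2 fold change -0.58, standard error 0.23, limma adjusted p = 0.254). Of 15 other TOP mRNAs, 2 were lower and 1 was higher in both SUV-OE libraries, fewer than those shares of all genes give, with a median log2 fold change of -0.06. Of 19 tested genes that control ribosomal protein mRNAs, 5 were lower and 1 was higher in both, where the lower count is near the 28.4% of all genes. Eif4ebp1, the translation repressor that mTOR phosphorylates, had 112 and 97.1 FPKM in controls and 65.4 and 67.1 FPKM in SUV-OE cells (log2 fold change -0.65, standard error 0.14, limma adjusted p = 0.108). Cnbp, which binds TOP mRNAs, had 227 and 240 FPKM in controls and 166 and 176 FPKM in SUV-OE cells. In contrast to these, Larp1, Myc and Mtor overlapped between groups, with log2 fold changes of -0.01, 0.11 and 0.01.

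Chaperones and importers of single ribosomal proteins had both SUV-OE libraries lower in 9 of 12 tested genes and higher in 1, against 28.4% and 25.4% of all tested genes, with a median log2 fold change of -0.30. Tsr2, the chaperone of the Rps26 protein, had 7.15 and 6.96 FPKM in controls and 4.09 and 4.60 FPKM in SUV-OE cells (log2 fold change -0.59, standard error 0.12, limma adjusted p = 0.1003). Ltv1, an assembly factor of the small subunit, had 47.6 and 50.2 FPKM in controls and 33.5 and 34.9 FPKM in SUV-OE cells (log2 fold change -0.51, standard error 0.11, limma adjusted p = 0.116). Ipo5, an importin that carries ribosomal proteins, had 81.2 and 79.3 FPKM in controls and 52.3 and 57.1 FPKM in SUV-OE cells (log2 fold change -0.55, standard error 0.12, limma adjusted p = 0.118). None of the 12 had a limma adjusted p under 0.05 (4 at an unadjusted p under 0.05, against 20.7% of all genes), and in the 3 named the libraries of a group lay close together.

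Markers of other blood cells moved with the groups or with the libraries. Over all tested genes, 25.4% were higher and 28.4% were lower in both SUV-OE libraries. Summed FPKM of 13 neutrophil granule markers was 5677 to 7934 in controls and 10124 to 12346 in SUV-OE cells. That list went both ways, with 9 markers (such as S100a8, S100a9 and Ngp) higher in both SUV-OE libraries and 3 (Ctsg, Prtn3 and Mpo) lower in both. Summed FPKM of 13 B-lymphoid markers was 22.2 to 31.2 in controls and 50.1 to 121 in SUV-OE cells. Summed FPKM of 13 erythroid markers was 22.4 in control 3 and 145 in control 4, and 125 to 155 in SUV-OE cells. The 10 T and NK markers summed to 75.7 to 115 in controls and 78.5 to 84.9 in SUV-OE cells, of which 7 (among them Cd3d, Cd3e and Cd3g) were below 0.5 FPKM in every library. Nkg7 made up most of that sum, with 73.0 and 112 FPKM in controls and 75.5 and 82.3 FPKM in SUV-OE cells. The 9 monocyte and macrophage markers summed to 370 to 657 in controls and 382 to 414 in SUV-OE cells, where 7 were higher in both SUV-OE libraries (median log2 fold change of the list 0.58) and Ly6c2, the most abundant, was lower in both. The 9 endothelial and stromal markers summed to 18.1 to 24.9 in controls and 66.5 to 73.5 in SUV-OE cells, of which 5 were below 0.5 FPKM in every library. Pecam1 alone had 16.7 and 23.3 FPKM in controls and 70.3 and 64.1 FPKM in SUV-OE cells. That sum is therefore almost all from Pecam1 and does not describe the list. Differential expression by limma was called for 3 erythroid markers (Car1, Car2 and Ermap), 1 neutrophil granule marker (Ltf) and 1 endothelial marker (Pecam1). All of these were higher in both SUV-OE libraries. The share called over all tested genes was 1.22%. No listed marker was at 0 in all 4 libraries. The part of these cells in the values of the ribosomal protein genes was not tested.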

How the data were processed

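RNA-Seq was analysed in 4 libraries, 2 of control and 2 of SUV-OE c-Kit+ leukemic cells. Per the study's methods, the authors used TruSeq RNA v2, which does not keep strand, sequenced paired ends on an Illumina instrument and aligned with TopHat2 to mm10. CASAVA 1.8 is named in the submitters' processing notes. The authors deposited FPKM per gene, which the study's methods credit to Cufflinks. Their annotation release is not given in the sources used here. Genes were matched to GENCODE M21 (23438 of 23552).

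log2(FPKM + 1) was compared in 13736 genes (mean FPKM 0.5 or more) with limma 3.58.1 (R 4.3.3) with an intensity trend, and p-values were adjusted by Benjamini-Hochberg over all tested genes. Fold changes on this scale understate those of low genes. Dividing FPKM by the worth of 1 read gave whole reads for 78.5% of genes (tolerance 0.01), and estimates rounded to whole reads for the rest. Summed reads and read shares used both, and limma-voom (10 reads or more on average, library sizes by median of ratios) used the whole ones only. The fit was tested on simulated data. Shared sequence was counted in windows of 100 bases of GENCODE transcripts.

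The members and lists were chosen with earlier results of these data known. Members named singly are those with a known role in the ribosome or in disease, paralogs with their parents, the largest non-overlapping changes, the highest and lowest 3 by mean FPKM, and those past the test. From other lists, up to 4 non-overlapping genes with the largest change were taken. Rps21, Rps28, Rpl8, Rps2, Cdkn1a, Larp1, Myc, Mtor and Kit were named outside this rule. Some items are not reported here.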

Additional observations from a re-analysis of the deposited data

How the results depend on the processing

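No member was a DEG under the alternatives in which any gene of the whole table passed, including an adjusted p under 0.1. The other alternatives, with a library left out or with no filter on low values, could call no member. The count of members at an adjusted p under 0.05, 1 in the reported fit, was 0 with a pseudocount of 0.1, with no filter on low values, with quantile normalization, without the intensity trend and with libraries scaled to the core ribosomal protein median (chosen after seeing the data). It was 2 (Rpl23a and Rpl22l1) with limma-voom on whole recovered reads, chosen after seeing the data in place of the planned limma-voom fit with TMM factors on all genes, which had also called these 2 members and is not kept because reads came out whole for 78.5% of genes only. Leaving out each library in turn gave 0 to 0 such members, where no gene of the whole table passed, nor did any with no filter, so these counts say nothing of the members. Members lower in both SUV-OE libraries, 14 as reported, numbered 14 to 82 with a library left out, 82 without control 3 and 38 without SUV-OE 3. Members higher in both, 1 as reported, numbered 3 with quantile normalization and 1 to 50 with a library left out, 50 without control 4 and 6 without SUV-OE 2. With fewer libraries, non-overlap is easier to reach. The median log2 fold change ranged from -0.45 to 0.18 over members, -0.45 to 0.16 over the large subunit and -0.47 to 0.18 over the small subunit with a library left out. The difference of the share of summed FPKM, -0.18 percentage points, ranged from -3.49 without control 3 to 3.12 without control 4. It was -0.16, -0.25 and -0.41 with other denominators. Among members sharing under 50% of windows (chosen after seeing the data) the median was -0.09. For 35 named members, 5 of 306 values changed sign under the other alternatives and 37 of 140 with a library left out. No paired analysis was possible because 3 is the one replicate number found in both groups. Where a group was left with 1 library, that library was assumed to vary like the other group. With 2 libraries a group, limma drew each standard error toward that of genes of like level, so precision was not set by the gene's own spread alone. Rpl8 differed by -0.12 between the controls and by 0.12 between the SUV-OE libraries, with a standard error of 0.29.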

Other observations

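The deposited table also lists 155 pseudogenes named after ribosomal proteins, which together held 0.34% and 0.46% of summed FPKM in controls and 0.38% and 0.42% in SUV-OE cells. Of the 92 tested, 77 were higher in control 4 than in control 3 (49.9% of all tested genes) and 24 went up from control 3 through SUV-OE 2 and SUV-OE 3 to control 4 (5.53% of all). In both SUV-OE libraries 22 were lower and 9 were higher, against 28.4% and 25.4% of all tested genes. Rpl38-ps2 had 131 and 334 FPKM in controls and 213 and 247 FPKM in SUV-OE cells, in the library order of Rpl38. Rpl13-ps5 had 0.57 and 0.94 FPKM in controls and 4.20 and 2.95 FPKM in SUV-OE cells (log2 fold change 1.38, standard error 0.21, limma adjusted p = 0.0657). It was singled out after its values were seen.

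Of 16 cell cycle genes, 15 were lower in both SUV-OE libraries and Mki67 was higher in both, against 28.4% and 25.4% of all tested genes. Mki67 had 38.4 and 43.7 FPKM in controls and 52.7 and 46.0 FPKM in SUV-OE cells. Ccne1, a cyclin of the entry into DNA replication, had 8.94 and 9.60 FPKM in controls and 5.27 and 5.26 FPKM in SUV-OE cells (log2 fold change -0.71, standard error 0.11, limma adjusted p = 0.0692). Rrm2, which makes deoxyribonucleotides, had 95.8 and 77.2 FPKM in controls and 50.6 and 53.9 FPKM in SUV-OE cells (log2 fold change -0.71, standard error 0.15, limma adjusted p = 0.112). None of the 16 had a limma adjusted p under 0.05 (7 at an unadjusted p under 0.05, against 20.7% of all genes).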
